A study of Homo sapiens with 9 samples.

Results

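The 98 probes described here are the bright and steady end of a microRNA (miRNA) bead array run on a human ovarian carcinoma cell line and its platinum-resistant derivatives. A probe was taken when its deposited normalized intensity was 10000 or more on all 9 arrays and when the mean log2 intensities of the 3 cell lines lay within 0.5 of each other in every pair. Of the 1145 probes in the table, 112 reached 10000 on all arrays, and 98 of these also met the limit on the differences. The same values chose the probes and describe them below, so their brightness and their small differences between lines are descriptions and not findings.

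IGROV-1 is the cisplatin-sensitive parental line. Cisplatin exposure of that line gave IGROV-1/Pt1, and oxaliplatin exposure gave IGROV-1/OHP. Each line was represented by 3 arrays of separately prepared cell samples from exponentially growing cultures, and each resistant phenotype by 1 line, so a trait of resistance cannot be told apart from a trait of that line. The labels give no drug dose, no exposure time and no drug state at harvest.

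A miRNA is a short RNA that guides an Argonaute protein to partly complementary sites in messenger RNAs, which lowers their translation or stability. Cells usually carry a few highly abundant miRNAs and many scarce ones, and the abundant ones are thought to exert most of the repression. Platinum drugs form adducts on DNA, and cells can become resistant through lower drug uptake, higher repair or altered cell death signalling. Bright probes that stay level across such lines are of interest as the common miRNA background against which changes are read, and as candidates for reference probes.

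The probes carry manufacturer identifiers, and the files do not pair them with miRNA names. None of the 1145 identifiers was found in the reference tables used here (0 matches), so no miRNA, family, sequence or genomic position is given, and no marker of ovarian, epithelial or other cells could be looked up. The intensity of a probe depends on how well it captures its target as well as on the amount of that target, so the word bright is used and not abundant.

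The array profile sets how these 98 probes can vary. Sorted intensities were nearly the same on all arrays, with at most 2.69% between arrays at any place, so the intensity of a probe restates its place in the brightness order of its array. Exactly 145 probes reached 10000 on every array, and the rule therefore asked for place 145 or better on each. The intensity was 38631 at place 1, 32228 at place 2, 28295 at place 10, 22220 at place 50, 15285 at place 100 and 10072 at place 145. In this part of the profile, 0.5 on the log2 scale covered 55 places below place 10, 46 below place 50 and 37 below place 100. A bright probe could thus lose many places and still meet the limit on the differences. The same 0.5 covered 39 places below place 145 and 37 below place 200. It covered 26 below place 300, 37 below place 400 and 67 below place 500. Below place 100 the profile was thus no flatter than below places 200 or 400.

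**Figure D1:**
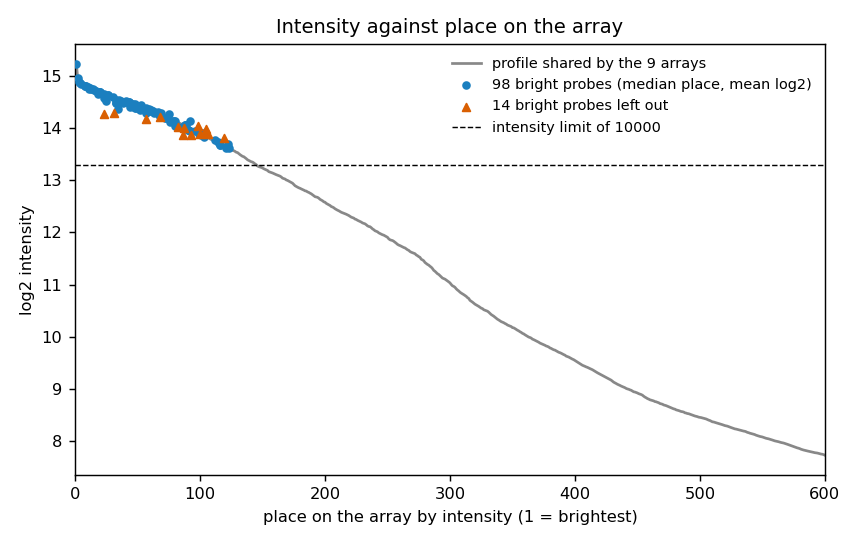
Log2 intensity against place in the brightness order (1 is the brightest), averaged over the 9 arrays (line), with the 98 bright probes (circles) and the 14 probes at 10000 or more on all arrays that differed by 0.5 or more between lines (triangles) at their median place and mean log2 intensity. The 98 probes lie at the upper end, above the dashed limit of 10000 that falls at place 145.

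The 98 probes made up 8.56% of the table and held between 53.8% and 54.5% of the summed intensity of each array. Their mean intensities over the 9 arrays (from mean log2 values) ran from 12648 to 38631, with a median of 21228. The single lowest reading was 10072. On all 9 arrays, 69 of the 98 stayed within the first 100 places.

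Place 1 was held by the same probe on every array, and place 2 by another on 8 of them. ILMN_3167303 was the brightest probe of every array, at 38631 on all 9, so its standard deviation (SD) of 0 shows only that its place did not change. ILMN_3167371 was second at 32228 on 8 arrays and at the third place, with 30976, on IGROV-1/Pt1 replicate 2. With nearly the same sorted values on every array, a change in the amount of a target that left its probe in place would hardly alter the reading. Whether the brightest probes were saturated on the scanner was not analysed here, and saturated readings would also be level.

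Some other bright probes also held their place closely. ILMN_3168005 read 25597, 25965 and 26326 on parental replicates 1 to 3, 25965, 26115 and 26115 in IGROV-1/OHP, and 25763, 25763 and 25454 in IGROV-1/Pt1. It moved between places 21 and 26, and its log2 range over the 9 arrays was 0.049. Over the 98 probes the median log2 range was 0.31, with 40 probes below 0.25 and 26 at 0.5 or more. The range of places had a median of 28.5, with 11 probes moving by 10 places or fewer and 22 by 50 or more.

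At the dim end of the 98 the readings were looser. ILMN_3167774 had the lowest mean and read 14500, 12869 and 13202 on the parental arrays, 12200, 12373 and 13472 in IGROV-1/OHP, and 11207, 11261 and 13096 in IGROV-1/Pt1. The arrays of the lines overlapped in each pair. ILMN_3168668, next to it in mean level, read 12373, 12500 and 12869 on the parental arrays, 13096, 14689 and 11207 in IGROV-1/OHP, and 12604, 13472 and 11380 in IGROV-1/Pt1, again with overlap throughout. With the 98 probes put in order of mean level, the median SD between arrays of a line was 0.027 on the log2 scale for the first 25 and 0.093 for the last 23. The median range of the 3 line means was 0.050 and 0.19 in the same sets. The median range of places was 11 and 43, so the looser log2 values at the lower end came with larger moves in the order.

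Each line kept most of the bright probes of the others. Of 136 probes at 10000 or more on all 3 parental arrays, 122 (89.7%) were so on all 3 IGROV-1/OHP arrays and 118 (86.8%) on all 3 IGROV-1/Pt1 arrays. Only 4 of the 136 were below 10000 on every IGROV-1/OHP array and 6 on every IGROV-1/Pt1 array. In the other direction, 12 of the 133 probes bright on all IGROV-1/Pt1 arrays were below 10000 on every parental array, against 6 of the 134 bright on all IGROV-1/OHP arrays. Since 145 probes are bright on any array, each probe that left this set was replaced by another. Over the 9 arrays, 185 probes were bright at least on 1, and 73 of them only on some.

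The rule was also applied to 8 arrays at a time, and the array left out was then read. This chose between 97 and 100 probes, of which 96 to 98 belonged to the 98. On the left-out array at most 1 of the chosen probes was below 10000, and the lowest such reading was 8380, on IGROV-1/Pt1 replicate 3. All chosen probes lay within 0.5 of the mean of the other arrays of their line for 5 of the arrays, 99 of 100 did on parental replicate 1, and 94 did on IGROV-1/OHP replicates 2 and 3 and on IGROV-1/Pt1 replicate 3. Fewer lay within 0.5 of the means of both other lines, 88 of 99 on IGROV-1/OHP replicate 2, 92 of 97 on IGROV-1/OHP replicate 3, 92 of 98 on IGROV-1/Pt1 replicate 3, 97 of 100 on parental replicate 1 and all but 0 to 3 on the remaining arrays. The median absolute log2 deviation of the left-out array was between 0.039 and 0.093, with the highest value on IGROV-1/OHP replicate 2.

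Between arrays of 1 line the 98 probes differed less than the tested probes at large, as their brightness and the rule allow. A probe was tested when it reached 167, a level of 2 times the mode of all intensities, on at least 3 arrays, which left 705 probes and kept all 98. On the log2 scale, the median SD of the 98 was 0.043 for the parental arrays, 0.063 for IGROV-1/OHP and 0.051 for IGROV-1/Pt1 (n = 3 each). Over all 705 it was 0.22, 0.25 and 0.16. An SD above 0.2 was seen at 2 of the 98 probes among parental arrays, at 18 among those of IGROV-1/OHP and at 9 among those of IGROV-1/Pt1.

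Among pairs of arrays of 1 line, IGROV-1/OHP replicates 2 and 3 differed most at the 98 probes. They differed by 0.5 or more on the log2 scale at 9 of the 98 probes, 5 brighter on replicate 3 and 4 brighter on replicate 2, whereas no pair of parental arrays differed by as much at any of them (0 probes). IGROV-1/OHP replicate 2 gave the sole lowest reading of 17 probes and the sole highest of 26, more than any other array. The root mean square deviation of the 98 probes from their line mean was 0.15 and 0.16 on IGROV-1/OHP replicates 2 and 3. It was 0.12 on IGROV-1/Pt1 replicate 3 and between 0.055 and 0.077 on the others. Over all 705 tested probes the order was different, with 0.50 on IGROV-1/OHP replicate 2, 0.45 and 0.41 on parental replicates 1 and 2, 0.41 on IGROV-1/OHP replicate 3, 0.30 on IGROV-1/Pt1 replicate 3 and 0.19 to 0.26 on the others. Parental replicates 1 and 2 thus lay close to their line mean at the 98 probes and not over the 705 tested. Parental replicate 3 was at 0.26 over the 705.

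The widest case was ILMN_3167382. It read 24445, 25763 and 23952 on the parental arrays, 24113, 24984 and 10072 in IGROV-1/OHP, and 21562, 23007 and 18244 in IGROV-1/Pt1. Its IGROV-1/OHP replicate 3 lay at the limit of the rule while the other arrays of that line were level with the parental ones. Without that array its log2 difference of IGROV-1/OHP from parental cells was -0.01 in place of -0.44, and neither passed the threshold (limma adjusted p = 0.42 with all arrays).

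ILMN_3168282 varied in the opposite sense. It read 26821, 27523 and 23072 on the parental arrays, 18614, 13997 and 27523 in IGROV-1/OHP, and 20772, 23469 and 28295 in IGROV-1/Pt1. Replicate 2 was the low array of IGROV-1/OHP and replicate 3 the high array of both resistant lines. ILMN_3167773 followed the same order, with 13759, 10072 and 17577 in IGROV-1/OHP and 16667, 15622 and 19511 in IGROV-1/Pt1, against 17435, 19032 and 16141 in parental cells. Of the 5 probes brighter on IGROV-1/OHP replicate 3 than on replicate 2 by 0.5 or more, 4 were also above the mean of the other arrays on IGROV-1/Pt1 replicate 3. Of the 4 that were dimmer, 3 were below it. Deviations from the line mean on replicate 3 of IGROV-1/OHP and of IGROV-1/Pt1 had a correlation of 0.43 over all 705 tested probes. It was 0.48 over the 98, so the shared shift was not particular to them. A differently numbered pair, parental replicate 3 and IGROV-1/Pt1 replicate 2, had 0.54 over the 98 and 0.23 over the 705.

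**Figure D2:**
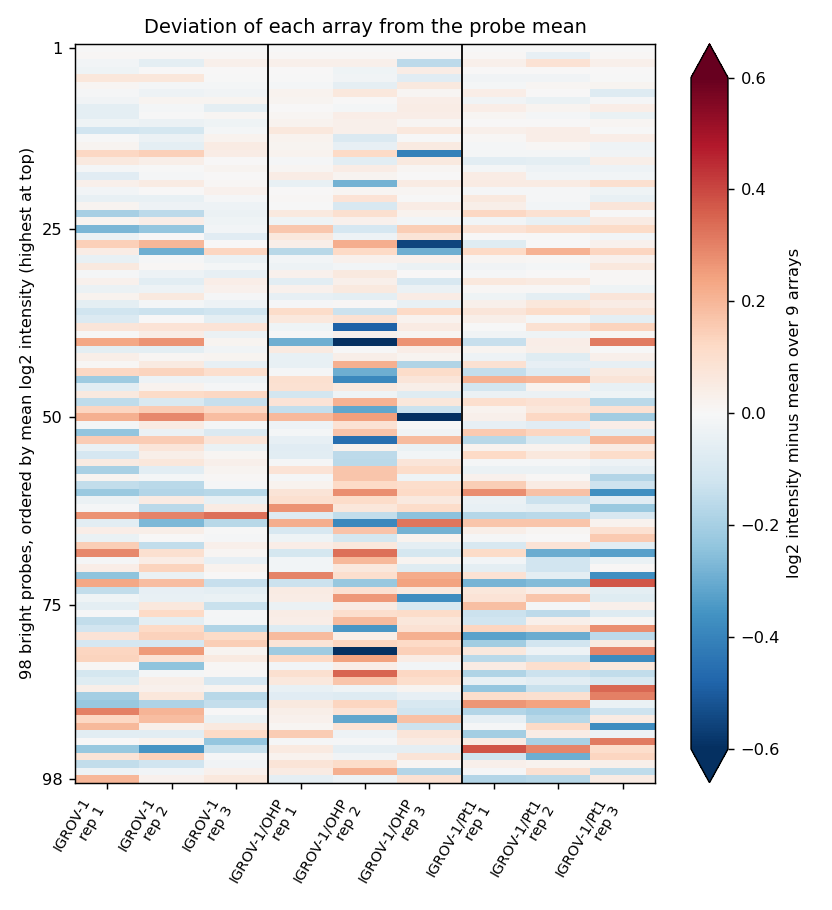
Log2 intensity of each of the 98 bright probes (lines of the map, highest mean at the top) on each of the 9 arrays (columns), less the mean of that probe over the 9 arrays. The colour scale ends at 0.6 in either direction. The upper part is pale, and the deepest colours lie on IGROV-1/OHP replicates 2 and 3 and IGROV-1/Pt1 replicate 3.

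At most of the 98 the widest range within a line was larger than the range of the line means. The widest range between the 3 arrays of any 1 line had a median of 0.18 over the probes, and the range of the 3 line means a median of 0.13 (log2). The former was larger at 67 probes and smaller at 30. The former is the widest of 3 ranges between single readings, while the latter compares means of 3 arrays and was capped by the rule. An excess of the former is thus built into these measures. The counts do not tell whether arrays or lines differed more. The 3 line means lay within 0.1 of each other at 41 probes, spanned 0.1 to 0.25 at 36 and 0.25 or more at 21.

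**Figure D3:**
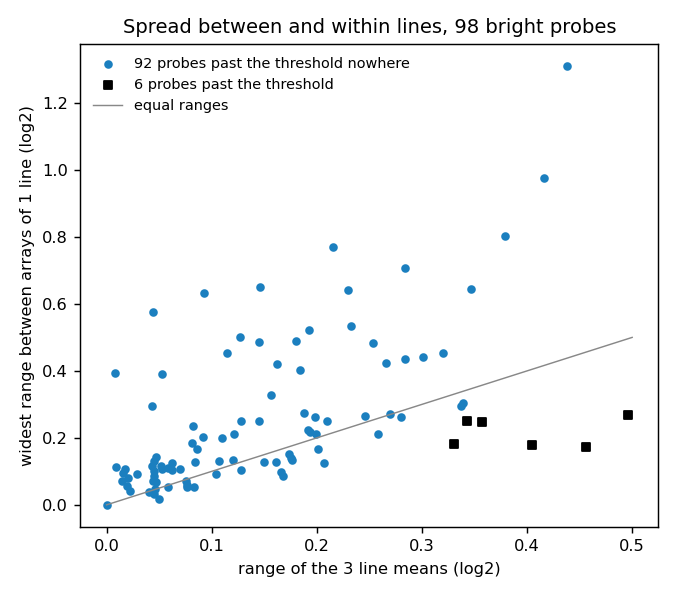
Widest log2 range between the arrays of 1 line against the log2 range of the 3 line means, for the 98 bright probes. The line marks equal ranges. The 6 probes that passed the threshold in a comparison (squares) lie below it, and 67 of the 98 lie above it.

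The comparisons ask how far each resistant line departed from the parent and from the other. In IGROV-1/OHP against parental cells the median absolute log2 difference of the 98 probes was 0.071, a 1.05-fold difference, against 0.29 over all 705 tested probes. For IGROV-1/Pt1 and the parent it was 0.065 against 0.32, and for the derivatives 0.058 against 0.31. The rule fixed these small sizes. The signs were mixed. The difference from parental cells was above 0 at 57 of the 98 for IGROV-1/OHP and at 47 for IGROV-1/Pt1, and these comparisons share the parental arrays.

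**Figure D4:**
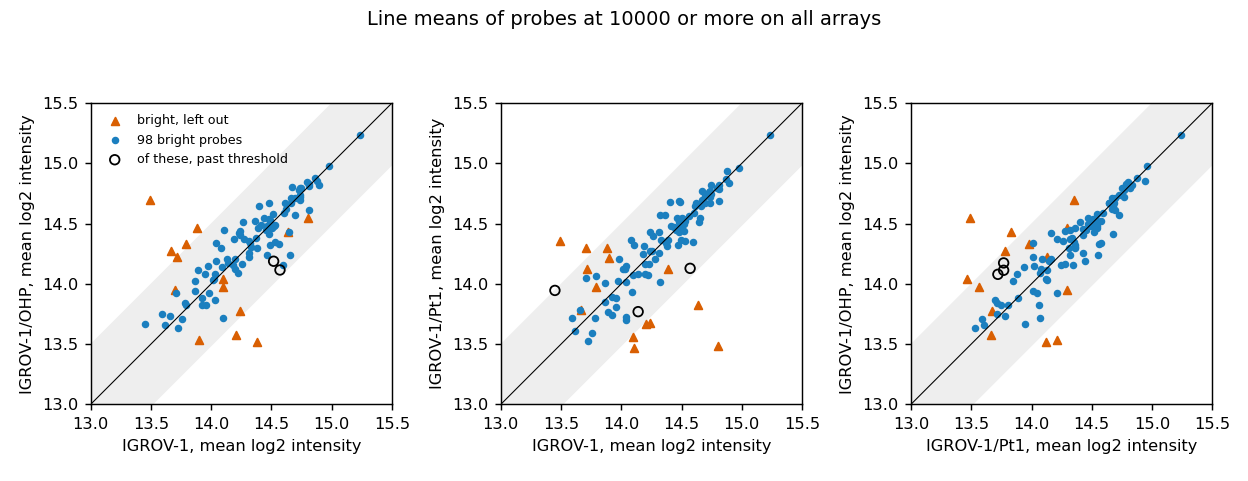
Mean log2 intensity in one line against another for the 98 bright probes (circles) and the 14 left out (triangles), with the band of ±0.5 in grey. Each mean is over 3 arrays. Open circles mark those of the 98 that passed the limma threshold in that comparison, 2, 3 and 3 from left to right.

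The 95% interval of the difference, from limma, lay wholly within ±0.5 for 85 of the 98 probes when IGROV-1/OHP was set against the parent, for 78 when IGROV-1/Pt1 was, and for 82 when the derivatives were set against each other. Over all 705 tested probes it did so for 175, 163 and 164. The rule capped the differences on which these intervals are centred, so it favoured such intervals among the 98. All 3 intervals lay within ±0.5 for 72 of the 98. For the other 26 a true difference of more than 0.5 lay inside at least 1 interval, although the means met the rule. The median standard error (SE) of a difference was 0.083 for the 98 and 0.20 for all tested probes.

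Small differences nevertheless passed the threshold (limma adjusted p under 0.05 over the 705 probes) at 6 of the 98. In IGROV-1/OHP against parental cells 2 of the 98 passed, where 13.2% of all tested probes did. Both were lower in IGROV-1/OHP, where 5.39% of all tested probes were lower and 7.8% higher. For IGROV-1/Pt1 and the parent 3 passed, beside 17.9%. Of these, 1 was higher and 2 were lower in IGROV-1/Pt1, beside 10.8% higher and 7.09% lower of all tested. Between the derivatives 3 passed, beside 16.6%. All 3 were higher in IGROV-1/OHP, beside 8.65% higher and 7.94% lower of all tested. The rule used these contrasts, so the lower shares among the 98 say nothing further. The arrays of the lines did not overlap at 29 of the 98 probes (29.6%) in IGROV-1/OHP against parental cells, where the share of all tested probes was 33%. The corresponding counts were 30 (30.6%) for IGROV-1/Pt1 and the parent, beside 41.4%, and 23 (23.5%) for the derivatives, beside 39.6%.

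ILMN_3167240 was lower in both resistant lines. It read 23866, 24318 and 24823 on the parental arrays, 18768, 17842 and 16667 in IGROV-1/OHP, and 17577, 17667 and 18488 in IGROV-1/Pt1, so every resistant array lay below every parental one. It fell 1.37-fold in IGROV-1/OHP, from 24336 ± 478 to 17759 ± 1053 (SD, n = 3 each), a log2 difference of -0.46 (SE 0.08, limma adjusted p = 0.0074). In IGROV-1/Pt1 it stood at 17911 ± 502, a log2 difference of -0.44 from the same parental arrays (SE 0.08, limma adjusted p = 0.0057). The resistant lines overlapped, with a log2 difference of -0.01 and a 95% interval of -0.19 to 0.17. In places, it moved from 29 to 35 in parental cells to 73 to 90 in the resistant lines.

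ILMN_3167837 was lower in IGROV-1/OHP alone among the calls against parental cells. It read 23369, 23726 and 23294 on the parental arrays, 19355, 17188 and 19511 in IGROV-1/OHP, and 21695, 22373 and 22724 in IGROV-1/Pt1. The 3 lines did not overlap in any pair. The log2 difference of IGROV-1/OHP from parental cells was -0.33 (SE 0.08, limma adjusted p = 0.034), and that between the resistant lines was -0.26 (limma adjusted p = 0.066). Without 1 array the former call was lost for 8 of the 9 arrays, IGROV-1/Pt1 replicate 3 being the exception, with log2 differences of -0.36 to -0.27.

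ILMN_3168426 rose in IGROV-1/Pt1. Its readings were 11261, 10320 and 12024 on the parental arrays, 13679, 12715 and 12715 in IGROV-1/OHP, and 17112, 16141 and 14201 in IGROV-1/Pt1, with no overlap between any pair of lines. IGROV-1/Pt1 exceeded the parent 1.41-fold, a log2 difference of 0.50 (SE 0.10, limma adjusted p = 0.011), just inside the limit of the rule. When IGROV-1/Pt1 replicate 1 was left out it was 0.44, with a limma adjusted p of 0.0504, the highest of the 14 alternatives (lowest 0.0026). IGROV-1/OHP exceeded the parent by 0.22 on the log2 scale (limma adjusted p = 0.20).

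ILMN_3168657 had its low level in IGROV-1/Pt1. It read 17667, 18385 and 18088 on the parental arrays, 19032, 17112 and 19355 in IGROV-1/OHP, and 13371, 13577 and 14974 in IGROV-1/Pt1. The parental and IGROV-1/OHP arrays overlapped, and all IGROV-1/Pt1 arrays lay below them. The log2 difference of IGROV-1/Pt1 from parental cells was -0.37 (SE 0.09, limma adjusted p = 0.019), and IGROV-1/OHP exceeded IGROV-1/Pt1 by 0.40 (SE 0.09, limma adjusted p = 0.018). The first call was lost when parental replicate 2 or 3, or replicate 1 or 2 of IGROV-1/Pt1, was left out. The second was lost without replicate 1 or 3 of IGROV-1/OHP or replicate 1 or 2 of IGROV-1/Pt1.

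ILMN_3168672 and ILMN_3168710 completed the 3 calls between the resistant lines. The first read 17112, 18614 and 16259 in IGROV-1/OHP and 14076, 14409 and 12138 in IGROV-1/Pt1, beside 17298, 16667 and 16395 in parental cells. IGROV-1/OHP was higher by a log2 difference of 0.36 (SE 0.10, limma adjusted p = 0.045). ILMN_3168710 read 16595, 19753 and 16938 in IGROV-1/OHP and 13679, 14201 and 13997 in IGROV-1/Pt1, beside 14409, 15425 and 15622 in parental cells, a difference of 0.34 (SE 0.09, limma adjusted p = 0.044). The arrays of the resistant lines did not overlap at either probe, and at ILMN_3168710 the parental arrays lay between them. ILMN_3168672 lost its call without any 1 of the 9 arrays, and ILMN_3168710 without any 1 except parental replicate 1. Both calls were also lost under cyclic loess scaling (limma adjusted p = 0.075 and 0.066). ILMN_3168710 is named because the calls are few, after its values had been seen.

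**Figure D5:**
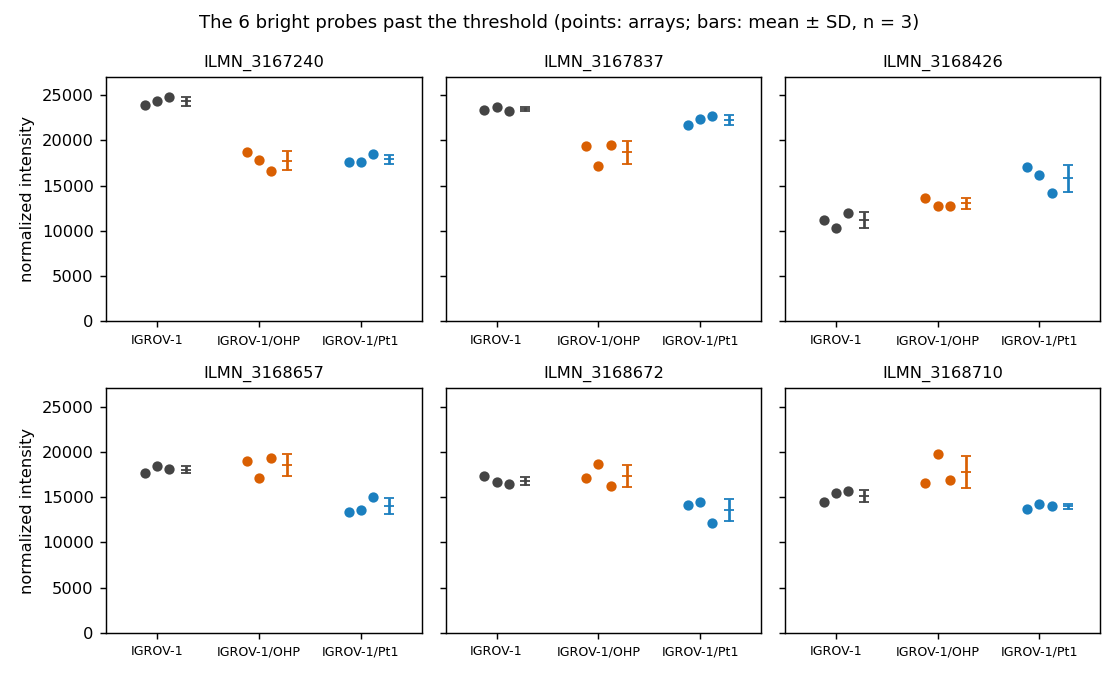
Normalized intensity of the 6 bright probes that passed the threshold in at least 1 comparison, on each of the 9 arrays (points), with the mean ± SD of each line (bars, n = 3). ILMN_3167240 is lower in both resistant lines, with every resistant array below every parental one.

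Further probes at the edges of the differences did not pass. ILMN_3168463 had the highest log2 difference of IGROV-1/OHP from parental cells among the 98, at 0.35 (SE 0.17, limma adjusted p = 0.21). Its parental readings were 17188, 17767 and 17842, and those of IGROV-1/OHP were 21135, 24318 and 21795, without overlap. In IGROV-1/Pt1 it read 24318, 22604 and 15542, where replicate 3 lay below every parental array. ILMN_3167194, the next highest, was 0.30 above parental cells in IGROV-1/OHP (limma adjusted p = 0.20), with 22007, 19206 and 20895 against 15168, 17435 and 17953. ILMN_3167529 was 0.34 higher in IGROV-1/Pt1 (limma adjusted p = 0.072), with 18244, 17953 and 14778 against 12991, 13371 and 13759 in parental cells. The lowest differences of IGROV-1/OHP from IGROV-1/Pt1 were at ILMN_3167773, -0.35 (limma adjusted p = 0.29), and ILMN_3168282, -0.31 (limma adjusted p = 0.45), the probes with wide IGROV-1/OHP replicates given above. Without IGROV-1/OHP replicate 2 these differences were -0.14 and -0.08, and without IGROV-1/OHP replicate 3 they were -0.55 and -0.57. Leaving out IGROV-1/Pt1 replicate 3 gave -0.26 and -0.20. Without IGROV-1/Pt1 replicate 1 they were -0.38 and -0.42, and without its replicate 2 they were -0.42 and -0.33. None of these 5 probes was called with all arrays (0 calls by limma in these comparisons), and ILMN_3167529 had an unadjusted p below 0.05. ILMN_3167529 passed under 4 of 14 alternatives, which were cyclic loess, array weights, a trended robust prior and the removal of IGROV-1/Pt1 replicate 3 (limma adjusted p from 0.012 to 0.22 over the 14). ILMN_3168463 passed under 1, without IGROV-1/Pt1 replicate 3 (limma adjusted p from 0.044 to 0.37).

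The probes just outside the rule show where it divided the bright probes. ILMN_3168426 and ILMN_3167240 lay inside the limit on the differences, with ranges of line means of 0.496 and 0.456, and ILMN_3167422 and ILMN_3168391 outside it, at 0.51 and 0.54. For the intensity limit, ILMN_3167382 and ILMN_3167773 lay inside with lowest readings of 10072, and ILMN_3167152 and ILMN_3168802 outside with 9818 and 9719. The 14 probes that were bright on all arrays but were left out had ranges of line means from 0.51 to 1.31, and 10 of them passed the threshold in at least 1 comparison. The widest, ILMN_3167441, read 28152, 28295 and 29149 in parental cells and 11380, 11516 and 11516 in IGROV-1/Pt1. ILMN_3168515 rose from 11516, 11207 and 11888 in parental cells to 26821, 27230 and 25763 in IGROV-1/OHP and 21135, 21695 and 19930 in IGROV-1/Pt1. These probes are given as the edge of the rule, were chosen by their differences, and are not set against the 98 by a test.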

How the data were processed

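Values are linear probe intensities of 1-colour bead arrays with biotin-labelled total RNA, deposited by the authors as normalized intensities, and the submitters' processing notes name BeadStudio without a version. Neither the background setting nor the normalization is stated in the labels or files used here. The near identity of sorted values has the form of quantile normalization, so they were not normalized again, and a change in total miRNA cannot be seen. A further deposited table, with 18 columns whose names match no sample label, was left out.

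The probes, lists and tests were chosen with earlier results of these data known. Groups came from sample titles. Log2 intensities (no pseudocount) of 705 probes, which reached 167 (2 times the mode of 83.4) on at least 3 arrays, entered a limma 3.58.1 model (R 4.3.3) of 3 line means over 9 arrays (6 residual degrees of freedom, prior degrees of freedom 1.51, prior SD 0.18). Tests were two-sided with Benjamini-Hochberg adjustment over the 705 probes. The number of arrays limits the precision. In a simulation of the contrast of IGROV-1/OHP and parental cells with 705 probes, 34.3% of 1.5-fold, 71.6% of 2-fold and 89.4% of 4-fold changes were recovered. The changed probes were drawn from all 705, each with its own spread. The median log2 SD was 0.20 over the 705 and 0.053 over the 98, so these shares do not describe the 98. Without miRNA names, named probes were the 2 highest and 2 lowest by level, by each difference and by spread, those at each limit, and calls. The miRNA family, cluster and cell type lists of the plan could not be matched and were not tested. Alternatives covered the limits of the rule, scaling, background, filter, prior, array weights, a replicate block and leaving out each array.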

Additional observations from a re-analysis of the deposited data

Results flagged for a closer look

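A direct limma comparison called a difference between the derivatives at 3 of the 98 probes, beside 16.6% of all tested probes. IGROV-1/OHP exceeded IGROV-1/Pt1 by a log2 difference of 0.40 at ILMN_3168657, 0.36 at ILMN_3168672 and 0.34 at ILMN_3168710. All 3 IGROV-1/OHP arrays lay above all 3 IGROV-1/Pt1 arrays at each. Their arrays were apart, in one direction or the other, at 23 of the 98 probes (23.5%), beside 39.6% of all tested. No call was left (0 by limma) with only these lines in the fit, where 6 of the 98 had an unadjusted p under 0.05. Over all tested probes 101 passed the threshold in that fit. None of the 98 was called without IGROV-1/OHP replicate 1 or 3 or IGROV-1/Pt1 replicate 1 or 2. In those fits 4 to 7 of the 98 had an unadjusted p under 0.05, and 71 to 87 of all tested probes passed the threshold. With all arrays, 9 of the 98 had an unadjusted limma p under 0.05, beside 223 of the 705. The rule capped the differences of the 98 at 0.5, so their sizes are descriptions. No formal outlier test was made on single arrays, since each line has 3.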

How the results depend on the processing

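With an intensity limit of 20000 the rule chose 40 probes, and with 5000 it chose 135. With limits of 0.25 and 1 on the differences it chose 77 and 110. Across scaling, background, line level and left-out arrays it chose 96 to 100, and 94 of the 98 were chosen under all 14 of these settings, the main one included. For IGROV-1/OHP and the parent, the number of the 98 past the limma threshold, 2, was 1 with only these lines in the fit, 1 with the replicate block, 6 with a trended robust prior, and 1 to 3 without 1 array. Over all tested probes 93 became, in the same order, 78, 67, 96 and 60 to 102. For IGROV-1/Pt1 and the parent, 3 became 10 with that prior, 9 with array weights, 2 with the replicate block and 1 to 5 without 1 array, the ends being IGROV-1/Pt1 replicates 1 and 3. Over all tested probes 126 became, in the same order, 136, 219, 118 and 102 to 148. Between the resistant lines, 3 became 1 with no filter, 1 with the mode subtracted, 6 with that prior, 7 with array weights and 0 to 2 without 1 array. With cyclic loess the count was 2, of which only 1 was among the 3 of the main fit. It was 0 with only these lines in the fit (limma, 6 at an unadjusted p under 0.05) and 0 with the replicate block (limma, 4 at an unadjusted p under 0.05). Over all tested probes the counts were 128 with cyclic loess, 101 with only these lines and 77 with the block. Of the 6 called probes, ILMN_3167240 alone kept its calls under all 14 scaling, prior, weight, block and left-out-array settings tried on it, with adjusted p from 5.13e-04 to 0.040 in IGROV-1/OHP and 2.44e-04 to 0.032 in IGROV-1/Pt1 (limma). The prior SD of 0.18, set by all tested probes, exceeds the median SD of the 98, which was 0.053 and ran from 0.042 to 0.054 without 1 array. The causes of these shifts were not tested. Median absolute differences lay between 0.058 and 0.081 under the settings tried. Same-numbered arrays did not all deviate together (correlations of -0.27 to 0.43 over the 705 probes), so the numbers were not taken as pairs. Between the resistant lines, replicates 2 and 3 did so, with correlations of 0.33 and 0.43, and replicate 1 did not (-0.18). Over the 98 these were 0.30, 0.48 and -0.04. Differently numbered arrays of the resistant lines had -0.47 to 0.24 over the 705.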
